A study of Sus scrofa with 12 samples.

Results

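The 10 genes described here are EGR1, EGR2, EGR3, NR4A1, NR4A2, NR4A3, ARC, IER2, IER3 and SRF. They were taken from the tables by gene symbol, and each symbol was found on a single identifier among 24358 genes. RNA was sequenced from pig PC-iPS cells, which are induced pluripotent stem cells derived from pericytes and kept on feeder cells in LCDMV medium (LIF, CHIR99021, DIM, MIH and vitamin C). The 4 groups had 3 libraries each. WT PC-iPS cells were the parental cells without the reporter. The knock-in cells were PC-iPS cells positive for a NANOG tdTomato knock-in, which added a FLAG tag, the tdTomato reporter and a puromycin cassette. The 3 knock-in libraries carry the names of 3 knock-in lines. The cells had been transfected, selected with puromycin and blasticidin and sorted for tdTomato, steps that cannot be told apart from the knock-in in the comparison with WT PC-iPS. They were mixed populations rather than clones, so that a culture may hold heterozygous, homozygous and unmodified cells. The Activin A group and the SB431542 group were, by the study's methods, such knock-in cells in LCDMV without LIF (the labels give LCDMV for all samples), with either Activin A, a ligand of the TGF-β family, or SB431542, an inhibitor of the type I receptors for Activin and TGF-β. Doses for these libraries are not given in the labels. The study ran its cytokine screen, which included Activin A, without feeder cells on Matrigel. Whether the sequenced cells of either treated group were grown with feeder cells is not stated. All cells of all groups were dissociated and held on plates for 1 h, and the cells still in suspension were lysed, which left most feeder cells behind. The labels do not say that the WT PC-iPS libraries came from separate cultures, so the p-values measure only the spread between these libraries, which may be technical.

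Immediate-early genes are transcribed within minutes of a stimulus, without new protein synthesis, and their transcripts are short-lived. Growth factors and stress reach many of them through ERK and cAMP signalling, which act on SRF with its ELK and MRTF partners and on CREB. Their products include transcription factors such as the EGR zinc-finger proteins and the NR4A orphan nuclear receptors, which pass a brief signal on to slower genes.

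In RefSeq's annotation of Sscrofa11.1, the assembly used by the authors, EGR1 lies on chromosome 2 from 140440829 to 140445302 and IER2 on the same chromosome from 65909638 to 65912491. EGR2 (66280665 to 66291308) and EGR3 (6943184 to 6948507) both lie on chromosome 14, far from each other. NR4A1 lies on chromosome 5 from 17403088 to 17407918, NR4A2 on chromosome 15 from 63487051 to 63506249, and NR4A3 on chromosome 1 from 241569867 to 241611735. RefSeq lists NR4A1 as a pseudogene in this assembly and the other 9 genes as protein-coding, so the NR4A1 gene model is uncertain. ARC lies on chromosome 4 from 1517986 to 1521403, and IER3 (23265560 to 23266905) and SRF (38213300 to 38223686) lie on chromosome 7.

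Expression is given as FPKM, fragments per kilobase of transcript scaled to the mapped fragments of each library, so that levels of different genes can be compared per length. The sum of FPKM over all genes ranged from 364241 to 390320, and the depth relative to the deepest library, estimated from the lowest values, ranged from 0.565 to 0.634 in WT PC-iPS and from 0.731 to 1.0 in the other groups. NANOG, the targeted gene, was 52.0, 101.1 and 70.4 FPKM in knock-in libraries 1, 2 and 3 against 9.71, 16.4 and 27.6 FPKM in WT PC-iPS, and 109, 195 and 157 with Activin A against 11.8, 27.2 and 11.8 with SB431542. Untreated and Activin A-treated knock-in libraries were thus above all WT PC-iPS libraries in NANOG, whereas those with SB431542 lay within the WT range. Of the other pluripotency markers, SOX2 was 64.0, 67.4 and 67.7 FPKM in untreated knock-in cells against 45.2, 39.1 and 45.7 in WT PC-iPS, with ranges apart and a difference under 1 (0.61; limma, adjusted p = 0.02011). LIN28A was called higher, with a difference of 2.08 (limma, adjusted p = 0.01842), and ZFP42 was listed at 0 in all 12 libraries. SALL4 and DNMT3B were not called, with differences of -0.01 and -0.40 (limma, adjusted p = 0.956 and 0.1742). Of 12 listed pluripotency markers, 9 were found and 5 were tested.

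The first comparison asked what differed between NANOG tdTomato knock-in cells and WT PC-iPS. Of the 10 genes, 6 were expressed at a higher level in the knock-in cells: ARC, EGR3, NR4A1, IER2, SRF and NR4A3. None was lower. A gene was called when the difference in log2(FPKM + 1) was at least 1 and limma's Benjamini-Hochberg adjusted p, taken over all 14014 tested genes, was at most 0.05. By this rule 1.61% of tested genes were higher and 0.706% were lower. All 10 genes passed the filter on low values and had a positive difference, with a median of 1.83 on the log2 scale beside -0.0014 over all tested genes. In 8 of the 10, each knock-in library was above each WT library, as was the case for 19% of tested genes. In bulk RNA, a larger share of cells that express a gene and more RNA per cell cannot be told apart.

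**Figure D1:**
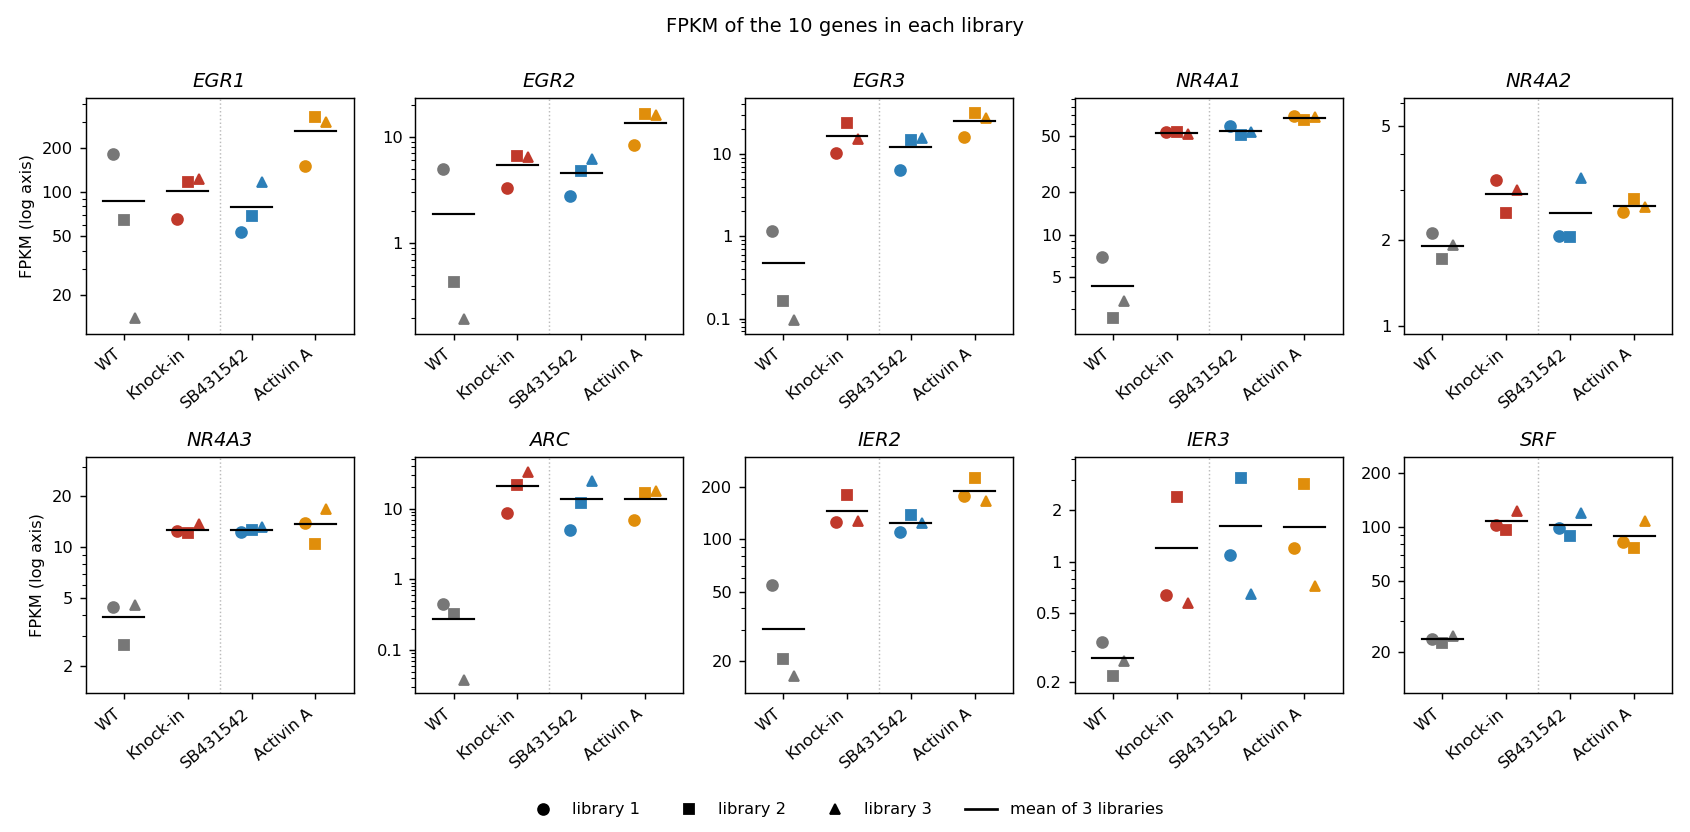
FPKM of each of the 10 genes in each library on a log axis, by group (WT PC-iPS, knock-in, SB431542, Activin A), with markers for library number and a bar for the mean of 3 libraries; the dotted line parts the separately deposited tables. ARC, EGR3, NR4A1 and SRF in WT PC-iPS lie far below the other groups, whereas EGR1 in WT PC-iPS spans from 13.99 to 182.6 FPKM.

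SRF, the transcription factor that binds the serum response elements of many immediate-early promoters, had the smallest spread of the 10 genes in WT PC-iPS. It was 23.7, 22.6 and 24.6 FPKM in WT PC-iPS libraries 1, 2 and 3, and 102.5, 96.5 and 121.8 FPKM in the knock-in libraries. The lowest knock-in library was 3.92 times the highest WT library. The difference was 2.13 ± 0.11 (SE, n = 3 against 3; limma, adjusted p = 0.0005998), and SRF was called whichever library was left out (6 fits).

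Among the NR4A genes, which encode nuclear receptors regulated mainly by how much of the protein is made, NR4A1 differed most. It was 6.96, 2.59 and 3.39 FPKM in WT PC-iPS and 53.4, 53.2 and 51.0 FPKM in the knock-in cells. The 3 knock-in libraries were nearly equal, with a coefficient of variation of 2.5%. The difference in log2(FPKM + 1) was 3.42 ± 0.27 (SE; limma, adjusted p = 0.001981), the 8th largest of all tested genes. NR4A3 was 4.42, 2.65 and 4.57 FPKM in WT PC-iPS and 12.4, 12.2 and 13.7 in the knock-in cells. Its difference was 1.52 ± 0.19 (limma, adjusted p = 0.009982). NR4A2 was 2.11, 1.71 and 1.92 FPKM in WT PC-iPS and 3.23, 2.48 and 2.99 FPKM in the knock-in cells. The groups did not overlap, but the difference of 0.42 ± 0.14 did not pass (limma, adjusted p = 0.1087; 95% interval 0.089 to 0.751).

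The EGR genes did not behave alike. EGR3 was 1.17, 0.163 and 0.0966 FPKM in WT PC-iPS and 10.1, 23.9 and 15.1 FPKM in the knock-in cells. Its lowest knock-in library was 8.69 times its highest WT library, and the difference was 3.55 ± 0.36 (SE; limma, adjusted p = 0.004809). EGR1, a growth factor-induced activator of many promoters, was 182.6, 64.6 and 14.0 FPKM in WT PC-iPS and 65.3, 117.5 and 123.1 FPKM in the knock-in cells. WT library 1 was above every knock-in library and WT library 3 below every one, so the groups overlapped. The difference of 0.81 ± 0.80 did not pass (limma, adjusted p = 0.5364), and it was -0.15 without WT library 3. EGR2, a regulator of Schwann cell and lymphocyte genes, was 5.03, 0.431 and 0.195 FPKM in WT PC-iPS and 3.30, 6.61 and 6.50 in the knock-in cells. WT library 1 lay inside the knock-in range and the other WT libraries lay below it. The EGR2 difference was 1.52 ± 0.59 (limma, adjusted p = 0.143), and 2.26 with an adjusted p of 0.02459 without WT library 1, the only leave-out in which EGR2 was called.

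ARC, best known as the activity-regulated protein of neuronal synapses, was near 0 in WT PC-iPS, at 0.454, 0.330 and 0.0381 FPKM. In the knock-in cells it was 8.74, 21.2 and 32.9 FPKM. The difference in log2(FPKM + 1) was 3.95 ± 0.42 (SE; limma, adjusted p = 0.005633), the 3rd largest of all tested genes. The ratio of the mean FPKM was 76.5, which is larger than this difference gives because adding 1 lowers the change of genes near 0. The knock-in libraries themselves differed by 3.76-fold.

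IER2, a nuclear protein of the early growth response, had the highest mean FPKM of the 10 genes in knock-in cells, 145 ± 30.5 (SD, n = 3). It was 54.4, 20.4 and 16.3 FPKM in WT PC-iPS and 126.3, 179.7 and 127.4 FPKM in the knock-in cells. The ranges were apart, with WT library 1 the highest of its group. The difference was 2.39 ± 0.40 (limma, adjusted p = 0.02175), and the call was lost without knock-in library 1, knock-in library 2 or WT library 2 (adjusted p up to 0.07324). IER3, which acts in cell survival, was low throughout, at 0.342, 0.215 and 0.263 FPKM in WT PC-iPS and 0.638, 2.40 and 0.576 FPKM in the knock-in cells. Each knock-in library was above each WT library and knock-in library 2 stood above the other two, with a ratio of mean FPKM of 4.41, but the difference of 0.70 ± 0.28 did not pass (limma, adjusted p = 0.155), and was 0.34 without knock-in library 2. The size of the difference of low genes depended on the value added before the logarithm. With 0.01 FPKM added in place of 1, it was 1.80 for IER3, 2.76 for EGR2, 5.79 for EGR3 and 6.54 for ARC, and no call of these genes changed. EGR3, NR4A1, NR4A3, ARC and SRF were called whichever library was left out.

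**Figure D2:**
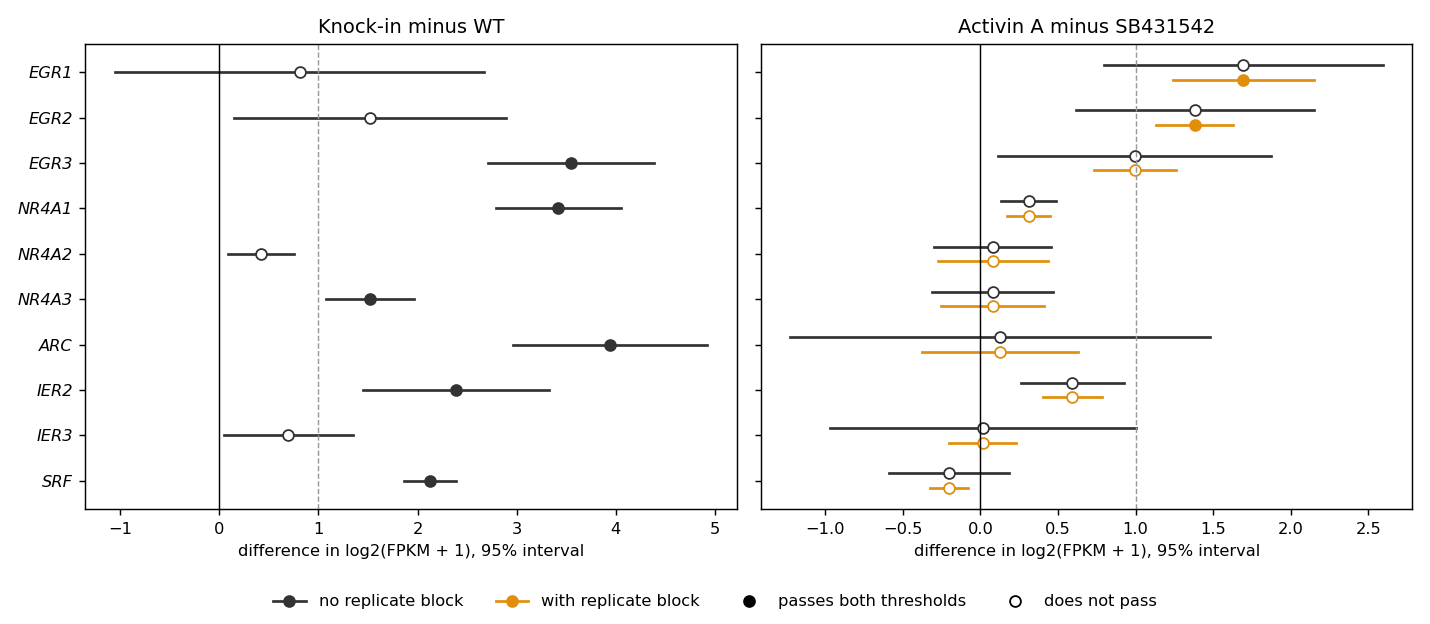
Difference in log2(FPKM + 1) with its 95% interval from limma for each of the 10 genes, knock-in minus WT on the left and Activin A minus SB431542 on the right, where the fit with library number as a block is added; filled points pass both thresholds and the dashed line marks a difference of 1. The 6 called genes on the left have intervals that start above 1, and on the right only EGR1 and EGR2 pass, with the block.

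WT library 1 was the highest of the 3 WT libraries for 8 of the 10 genes, the exceptions being NR4A3 and SRF, while 32.2% of all tested genes were highest in that library. It was also the highest for 26 of 38 other immediate-early genes (68.4%). For heat-shock genes, which answer protein damage, it was the highest for 3 of 12. Across all genes the 3 WT libraries correlated with one another at Pearson r of 0.975 to 0.978 (13696 genes, which are not independent replicates). Without WT library 1, 7 of the 10 genes were called higher, EGR2 being added.

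The spread between libraries of a group differed by gene. The SD of log2(FPKM + 1) of EGR1 in WT PC-iPS was 1.82, the 7th largest of 14014 genes, against a median of 0.191 over all genes in that group. EGR2 was 29th, with 1.28. In the knock-in cells the SD of EGR1 was 0.504 and that of EGR2 was 0.469, beside an all-gene median of 0.132. ARC had the largest spread of the 10 genes in knock-in cells, 0.915, and in SB431542-treated cells, 1.05. NR4A1 was the reverse, with 0.597 in WT PC-iPS and 0.036 in knock-in cells, where 93.3% of genes had an SD at least as large. SRF had an SD of 0.059 in WT PC-iPS and 0.173 in knock-in cells. These spreads are descriptions of 3 libraries, and differences between them were not tested.

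**Figure D3:**
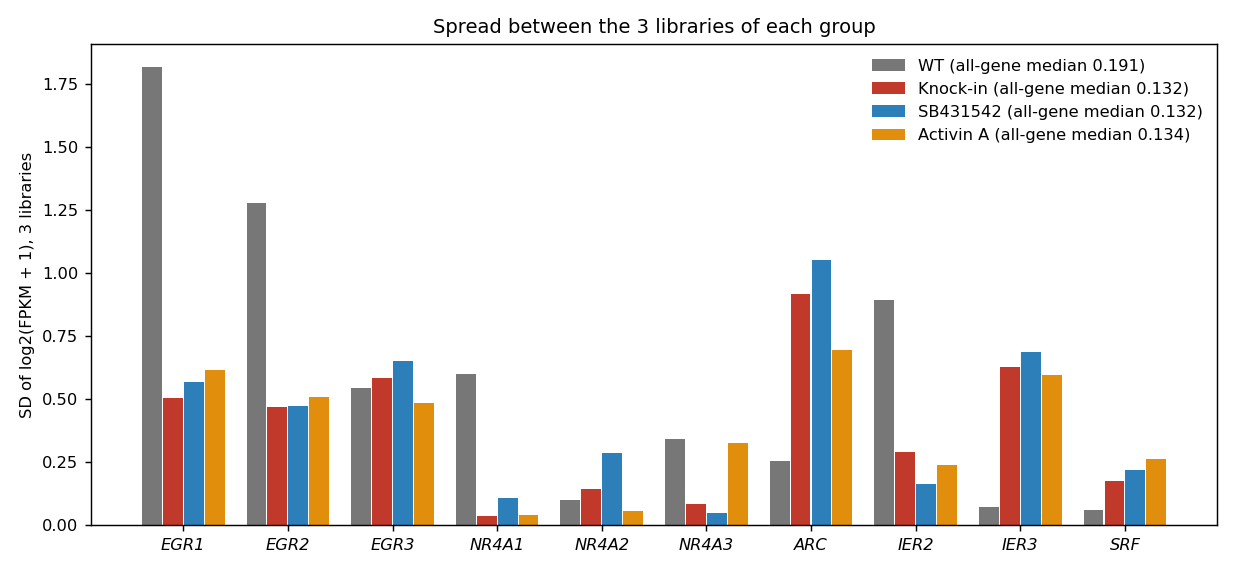
SD of log2(FPKM + 1) over the 3 libraries of each group for each of the 10 genes, with the median SD over all tested genes of each group in the key. EGR1 and EGR2 in WT PC-iPS have the tallest bars, 1.82 and 1.28, and NR4A1 in knock-in cells has the lowest, 0.036.

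Other immediate-early genes gave the count for the wider class. Of 40 listed, 39 were found and 38 were tested, and 17 were higher and 0 lower in knock-in cells, with a median difference of 1.44. FOSB, an AP-1 subunit, was 13.6, 20.3 and 14.9 FPKM in knock-in cells and 1.80, 0.0857 and listed at 0 in WT PC-iPS. EGR4, the remaining EGR family gene, was 3.37, 11.6 and 6.16 FPKM against 0.159, 0.0239 and 0.0533, with a difference of 2.77 ± 0.35 (limma, adjusted p = 0.009982). CCN1, a matrix protein gene, had a difference of 3.06, DUSP5, a nuclear ERK phosphatase gene, 2.76, KLF10, a TGF-β early response gene, 2.57, and ATF3, a stress-responsive factor, 2.49. Of the 38, 34 had a positive difference, and 25 had knock-in ranges above those of WT PC-iPS, as 19% of all tested genes did, and 1 below. Among those not called, FOS, at 47.1, 69.3 and 48.2 FPKM in knock-in cells and 51.0, 13.6 and 3.50 in WT PC-iPS, overlapped between groups as EGR1 did, with a difference of 1.87 ± 0.76 (limma, adjusted p = 0.1584). DUSP1 had a difference of -0.03 and MYC of -0.28, neither called. The count of 17 was 11 without knock-in library 1, 10 without knock-in library 2 and 11 without WT library 2, and ATF3 and CCN1 were not called in any of these 3 fits.

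NAB2, a co-repressor that binds EGR proteins and is itself known as an EGR target, was the only gene called of 11 partners and co-repressors. It was 93.7, 113.5 and 85.6 FPKM in knock-in cells and 5.91, 11.13 and 10.7 FPKM in WT PC-iPS. The ranges were far apart, and the difference was 3.30 ± 0.23 (limma, adjusted p = 0.001291). NAB1, its paralogue, was 17.0, 16.2 and 16.6 FPKM against 16.3, 19.1 and 17.2. Without WT library 2, 2 genes of this list were called.

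Of 34 tested genes for the kinases and transcription factors upstream, such as the RAS, RAF, MEK, ERK and RSK kinases and the ELK, MRTF and CREB factors, 0 were called in either direction by limma (10 at an unadjusted p under 0.05, 7 of them higher, beside 28.6% of all tested genes in either direction), and 2 had an adjusted p of at most 0.05 with a difference under 1. Their median difference was 0.08. Without WT library 3, 1 was called lower, ELK3, which had a difference of -0.83 with all libraries (limma, adjusted p = 0.05978). These are transcript levels and say nothing of phosphorylation. Heat-shock genes likewise had 0 of 12 called by limma, with 1 at an unadjusted p under 0.05 beside the same 28.6%, and their summed level was 2230 to 2480 FPKM in knock-in cells and 2190 to 2520 in WT PC-iPS.

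Of 21 tested cytoskeletal genes known as targets of SRF with MRTF, 13 were higher and 0 lower in knock-in cells. Of all tested genes, 1.61% were higher and 0.706% lower. The median difference of the 21 was 1.18, and 19 had knock-in ranges above those of WT PC-iPS, as 19% of all tested genes did. TAGLN, an actin-binding protein of smooth muscle, was 456.7, 453.4 and 298.8 FPKM in knock-in cells and 15.2, 26.6 and 21.0 in WT PC-iPS. CNN1 had a difference of 2.75, ACTA2 of 2.61, MYL9 of 2.13, TPM1 of 1.55 and VCL of 1.53. The count was 8 without knock-in library 1 and 8 without knock-in library 2.

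Some markers of other cell types differed in this comparison. The summed level of 8 pericyte markers, 2 of them called higher (ACTA2 and PDGFRB), was 52.8 to 55.6 FPKM in knock-in cells and 28.8 to 31.6 in WT PC-iPS. Mean ACTA2 was 13.7 against 1.39 FPKM and mean PDGFRB 9.28 against 2.32. ANPEP, MCAM and NOTCH3 were not called, with differences of 1.29, -0.02 and 0.14. The summed level of 10 fibroblast or feeder markers was 63.3 to 92.4 against 33.6 to 45.0, with DCN the only gene called, COL1A1 at 0.345 to 0.782 against 0.838 to 1.46 FPKM, and FAP listed at 0 in all libraries. That of 7 trophectoderm markers was 52.2 to 474 against 5.35 to 11, with KRT8 the only gene called and CDX2 listed at 0 in all libraries. Neural markers summed to 102 to 174 against 132 to 158, which overlap, with PAX6 called lower. Of the 5 neural markers, 2 had a positive difference, SOX1 (0.675) and MAP2 (0.423), and neither was called. ACTA2 is in both the pericyte and the cytoskeletal list. Relative depth was lower in all WT libraries, as given above. The part of these differences in the levels of the 10 genes was not tested.

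The second comparison asked how Activin A and SB431542 differed in their effect on knock-in cells. With Activin A, EGR1 and EGR2 were 3.27 and 2.97 times as high, by mean FPKM, as with SB431542, and EGR3 and IER2 were also above, while ARC, SRF, NR4A2, NR4A3 and IER3 overlapped between treatments. The call depended on whether libraries of the same number were treated as pairs. Without pairing, limma called 0 of the 10 genes, 5 of which (EGR1, EGR2, EGR3, NR4A1 and IER2) had an unadjusted p under 0.05, as did 12.8% of the 13999 tested genes. In that fit 0.0571% of tested genes were called higher and 0.0357% lower. With the replicate block, EGR1 and EGR2 were called higher and 0 of the 10 lower, beside 0.521% and 0.186% of tested genes, and 4 of the 10 (with EGR3 and IER2) were higher by the adjusted p alone, beside 1.66%. For the same 5 genes every Activin A library was above every SB431542 library, as was so for 9.19% of tested genes. The median difference of the 10 genes was 0.22, beside -0.004 over all genes.

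EGR1 was 150.6, 327.8 and 303.5 FPKM in Activin A libraries 1, 2 and 3 and 53.4, 69.1 and 116.6 FPKM in the SB431542 libraries. Within each number the ratio was 2.82, 4.74 and 2.60. The difference was 1.69 ± 0.38 (SE; limma, adjusted p = 0.1674) and, with the replicate block, 1.69 ± 0.18 (adjusted p = 0.02662). EGR2 was 8.33, 16.2 and 16.1 FPKM with Activin A and 2.76, 4.76 and 6.17 FPKM with SB431542. The ranges were apart, and number 1 was the lowest library in both groups. The EGR2 difference was 1.38 ± 0.32 (limma, adjusted p = 0.1802) and, with the block, 1.38 ± 0.10 (adjusted p = 0.01496). EGR3 was 16.0, 31.3 and 26.9 FPKM against 6.41, 14.8 and 15.6. Its ranges barely parted, and the blocked difference of 0.996 lay just under the threshold of 1 (limma, adjusted p = 0.02662; 0.3392 without the block).

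IER2 was 176.2, 225.7 and 165.0 FPKM with Activin A and 110.3, 138.0 and 124.6 FPKM with SB431542, a ratio of 1.6, 1.63 and 1.32 by number. Its difference of 0.59 was under the threshold of 1, with an adjusted p of 0.182 in limma and 0.03433 with the block. NR4A1 was 68.4, 64.9 and 67.8 FPKM against 58.5, 50.5 and 53.0. The ranges were apart, but the ratio of means was 1.24 and the adjusted p was 0.1922 in limma and 0.05837 with the block. An exact two-sided permutation test of 3 against 3 cannot give a p below 0.1, which these 5 genes reached.

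SRF was 81.7, 76.3 and 108.0 FPKM with Activin A and 98.1, 88.4 and 119.2 FPKM with SB431542. It was lower with Activin A in each of the 3 numbers, but the groups overlapped and the difference of -0.20 did not pass (limma, adjusted p = 0.6371; 0.09941 with the block). ARC was 6.89, 16.5 and 17.7 FPKM against 4.98, 11.95 and 24.6. It was higher with Activin A in numbers 1 and 2 and lower in number 3. Its 95% interval was -1.23 to 1.48 and, with the block, -0.38 to 0.63, and both include differences in either direction. NR4A2 was 2.50, 2.77 and 2.60 FPKM with Activin A and 2.06, 2.06 and 3.31 with SB431542, and NR4A3 was 13.9, 10.4 and 16.9 against 12.3, 12.7 and 13.2. IER3 was 1.21, 2.85 and 0.719 FPKM against 1.1, 3.11 and 0.645. These 3 genes overlapped, with differences between 0.01 and 0.08.

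**Figure D4:**
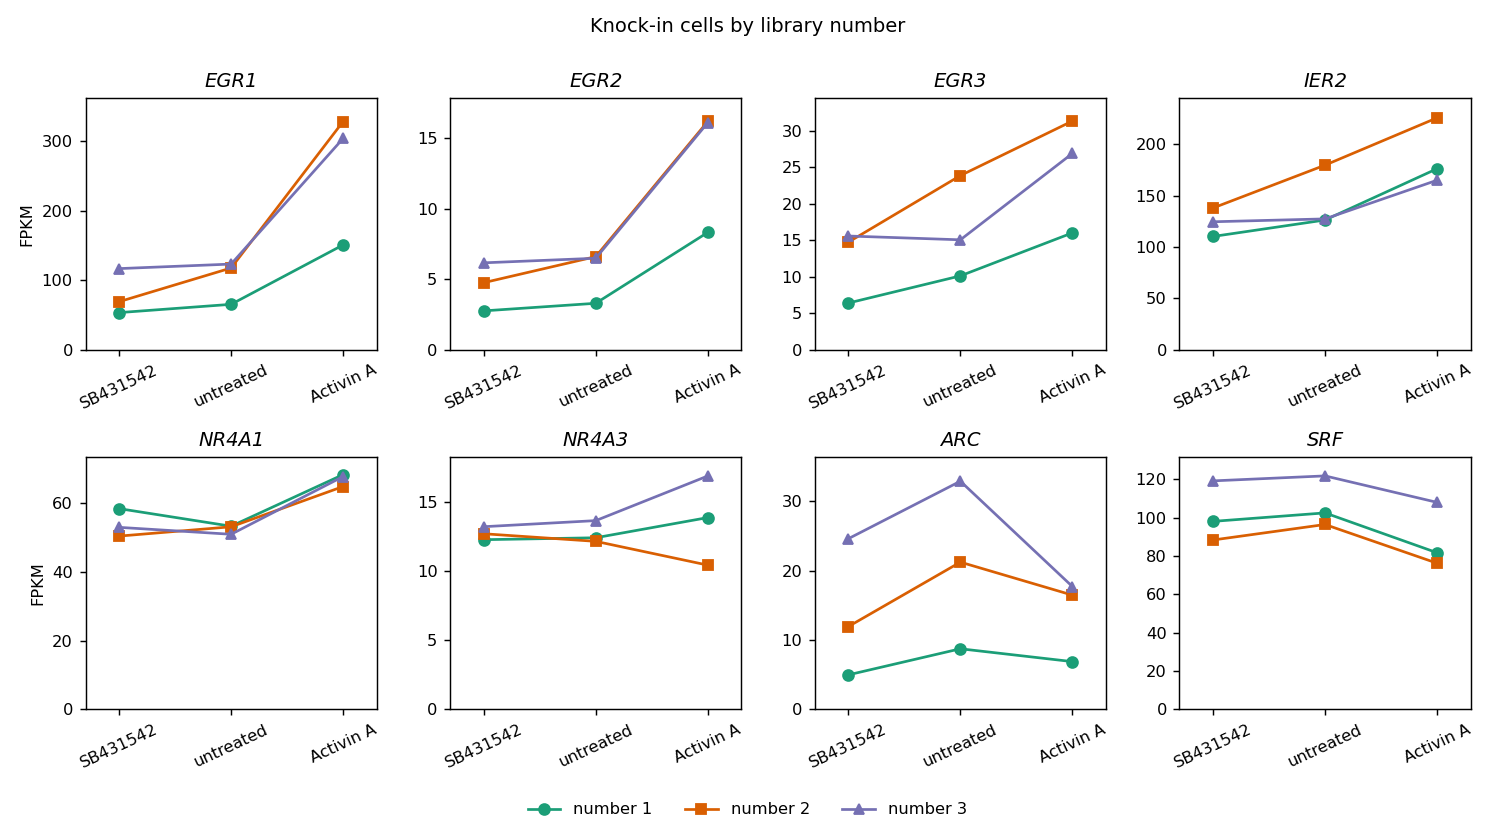
FPKM of 8 of the genes in SB431542-treated, untreated and Activin A-treated knock-in cells, with a line joining libraries of the same number; untreated cells come from a separately deposited table. EGR1 and EGR2 step up with Activin A in all 3 numbers, SRF and ARC do not, and number 1 is the lowest for EGR1, EGR2, EGR3 and ARC in each group.

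Untreated knock-in cells were set beside the treated cells without a test. Treatment cannot be told apart from the separately deposited tables and from possible differences in LIF and feeder cells. EGR1 with Activin A was 2.31, 2.79 and 2.47 times the untreated library of the same number, and EGR2 was 2.52, 2.45 and 2.48 times. For EGR1, EGR2 and NR4A1 all Activin A libraries were above all untreated knock-in libraries, as were 4.45% of genes. For SB431542 all 10 genes overlapped with untreated knock-in cells, where 5.56% of genes were above and 4.27% below. By number, SB431542 was below untreated each time for ARC (0.57, 0.562 and 0.748 times) and EGR1 (0.818, 0.588 and 0.947). EGR2 (0.837, 0.72 and 0.95), IER2 and SRF were also below, IER3 was above (1.73, 1.3 and 1.12), and the other genes went both ways. With Activin A, ARC (0.788, 0.776 and 0.538) and SRF (0.797, 0.791 and 0.887) were below each time. NR4A2 and NR4A3 went both ways, and the rest were above. Beside WT PC-iPS, 9 of the 10 genes were above it with Activin A (19.4% of genes), EGR1 being the exception, and 7 were above it with SB431542 (18.3%), the exceptions being EGR1, EGR2 and NR4A2.

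By mean FPKM, Activin A-treated cells had the highest level of EGR1, EGR2, EGR3, NR4A1, NR4A3 and IER2. For EGR1, EGR2 and NR4A1 this highest group was apart from the next, and for the others it overlapped with it. Knock-in cells had the highest mean of NR4A2, ARC and SRF, and SB431542-treated cells that of IER3, each overlapping with the next group. WT PC-iPS had the lowest mean of every gene but EGR1, and it was apart from the group above it for EGR3, NR4A1, NR4A3, ARC, IER2, IER3 and SRF.

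For several genes the same library number was the highest or the lowest in the 3 groups of knock-in cells. Number 1 was the lowest for EGR1, EGR2, EGR3 and ARC in untreated, Activin A-treated and SB431542-treated cells alike. Number 2 was the highest for IER2 and IER3 in all of these groups, IER3 reaching 2.40, 2.85 and 3.11 FPKM there, and number 3 was the highest for NR4A3 and SRF, as it also was in WT PC-iPS. NR4A1 was highest in number 1 in all 4 groups, although the untreated knock-in libraries were nearly equal. Of 38 other immediate-early genes, 25 were highest in number 2 in untreated cells, 22 with Activin A and 24 with SB431542, beside 28.3% to 30.0% of all tested genes. In WT PC-iPS, number 2 was the highest for 2 of the 38.

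Among the other immediate-early genes, 1 of 38 was called higher with Activin A and 0 lower, and 6 were called with the replicate block. At an unadjusted p under 0.05 by limma 16 were higher and 0 lower, beside 12.8% of all tested genes in either direction, and 14 had ranges above those with SB431542, as 9.19% of all tested genes did, and 0 below. HES1, a Notch-responsive repressor, was 43.9, 75.4 and 62.9 FPKM with Activin A and 6.60, 8.94 and 6.20 with SB431542 (difference 2.89 ± 0.22; limma, adjusted p = 0.02369). It lost its call on leaving out Activin A library 2 or 3 or SB431542 library 1 or 3. FOS, the partner of JUN in AP-1, was 111.0, 191.3 and 118.8 FPKM against 37.9, 51.0 and 38.0, a difference of 1.68 (limma, adjusted p = 0.07011; 0.01069 with the block). FOSB, CCN2, KLF10 and GADD45B were likewise called only with the block, with differences of 1.46, 1.62, 1.2 and 1.17. EGR4, in contrast to EGR1 and EGR2, was 3.28, 8.99 and 4.31 FPKM with Activin A and 2.28, 11.16 and 6.53 with SB431542, a difference of -0.14. The median of the 38 was 0.24.

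NAB2 was 72.1, 65.0 and 57.9 FPKM with Activin A and 85.8, 91.1 and 106.9 with SB431542, and NAB1 was 15.0, 13.5 and 10.9 against 20.8, 19.1 and 19.9. Both co-repressor genes had ranges below those of SB431542, where EGR1 to EGR3 had ranges above, but neither passed (limma, adjusted p = 0.1609 and 0.1587; 0.09725 and 0.05686 with the block). Of the 21 SRF and MRTF cytoskeletal genes, 0 were higher and 2 were lower with Activin A, and 8 had ranges below (10.8% of tested genes did), with a median of -0.24. ACTA2, smooth muscle actin, was 9.28, 7.52 and 8.17 FPKM with Activin A against 20.6, 18.7 and 18.9 (limma, adjusted p = 0.03457). VCL, vinculin of cell adhesions, was 39.0, 36.9 and 26.1 against 96.0, 99.2 and 84.7 (limma, adjusted p = 0.04241). Both calls were lost whichever library was left out. Upstream kinases and factors had 0 of 34 called by limma and heat-shock genes 0 of 11, each with 1 gene at an unadjusted p under 0.05.

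**Figure D5:**
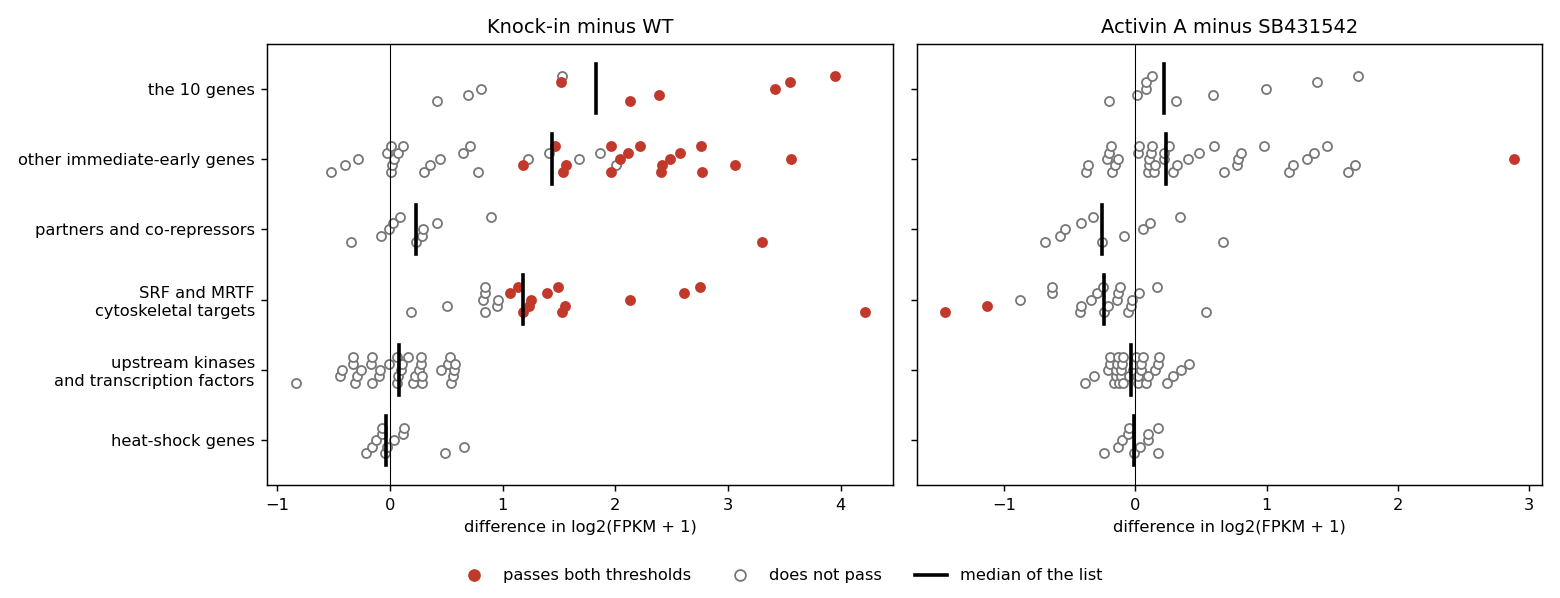
Difference in log2(FPKM + 1) for each tested gene of the 10 genes and of 5 lists, knock-in minus WT on the left and Activin A minus SB431542 on the right (fit without the block), with filled points for genes that pass both thresholds and a black bar for each median. On the left the medians of the 10 genes, the other immediate-early genes and the cytoskeletal targets are 1.83, 1.44 and 1.18, and those of the upstream and heat-shock lists are 0.08 and -0.04.

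Pericyte markers summed to 45.0 to 51.6 FPKM with Activin A and 61.4 to 63.3 with SB431542, with ACTA2 called lower. Fibroblast or feeder markers summed to 82.6 to 119 against 47.3 to 52.1, with 0 of 7 tested genes called by limma and 3 at an unadjusted p under 0.05. Trophectoderm markers summed to 45.0 to 404 against 98.6 to 912, with KRT8 highest in number 2 of both groups and CDX2 listed at 0. Neural markers summed to 105 to 198 against 70.5 to 119, with 0 of 4 tested genes called by limma, 1 at an unadjusted p under 0.05 and MAP2 ranges above those with SB431542. Of 6 tested pluripotency markers NANOG alone was called, and LIN28A had a difference of -1.55 (limma, adjusted p = 0.273). Their part in the differences of the EGR genes was not tested.

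The genes nearest in profile were found over the 12 libraries, as the mean absolute difference of log2(FPKM + 1) after each gene was centred on its own mean, among 10500 named genes. Nearest to EGR1 were EGR2 (0.368), EMILIN2 (0.485) and FOS (0.554), and nearest to ARC were EGR3 (0.434), CH25H (0.450) and EGR4 (0.546). NR4A1 lay nearest to SPRY4 (0.273), an ERK feedback inhibitor gene, TAGLN (0.380) and CCN1 (0.381). SRF lay nearest to ACTC1 (0.130), a cardiac actin gene, KLHL21 (0.2) and CD248 (0.217). ACTC1 had mean levels of 8.36 FPKM in WT PC-iPS, 46.7 in knock-in cells, 34.2 with Activin A and 41.3 with SB431542, in the order of SRF. The libraries and their depth are shared by all these genes, so the distances are descriptions.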

How the data were processed

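The authors ran Trim Galore, then HISAT2 2.0.4 against Ssc11.1, then StringTie 1.3.3 on Ensembl release 97 to estimate FPKM. The deposited FPKM were used unchanged, from 2 tables of 6 libraries. Read counts were not used here, so depth was only estimated, and no counting error is given. FPKM columns without a sample: 0.

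Tests were made within each table. A gene entered a test when 3 of its 6 libraries reached 0.1 FPKM. log2(FPKM + 1) was fitted with limma 3.58.1 (variance trend, two-sided, R 4.3.3), and calls needed an absolute difference of 1 or more with a Benjamini-Hochberg adjusted p no larger than 0.05. Fold differences are on the log2(FPKM + 1) scale and understate those of low genes.

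The labels number the libraries 1 to 3 in each group and state no pairs. For the replicate block, Activin A and SB431542 libraries of the same number were taken as pairs. Deviations from group means of same-numbered libraries correlated at 0.404, 0.590 and 0.541 over 13696 genes, and other pairs at -0.504 to -0.150. Deviations from a mean of 3 libraries sum to 0, so part of this contrast is built in. The knock-in libraries carry the numbers of the study's 3 knock-in lines, and whether the Activin A and SB431542 numbers mark the same lines is not stated in the labels or methods. Same-numbered libraries also correlated with untreated knock-in cells, at 0.510, 0.641 and 0.670 for Activin A (other pairs -0.503 to -0.062) and 0.515, 0.640 and 0.575 for SB431542 (other pairs -0.487 to -0.173).

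All 10 genes are named, with up to 6 called genes per list and the 3 nearest profiles of EGR1, ARC, NR4A1 and SRF. Some genes in comparisons without a call were named after their values were seen. From the gene lists these were FOS, FOSB, CCN2, KLF10, GADD45B, DUSP1, MYC, EGR4, NAB1, NAB2 and ELK3. Among the cell type markers they were SOX2, LIN28A, SALL4, DNMT3B, ZFP42, ANPEP, MCAM, NOTCH3, COL1A1, FAP, KRT8, CDX2, SOX1 and MAP2. The genes and lists were chosen with earlier results of these data known. Of 24358 genes, 17451 had a symbol in the tables and 965 more were named from a gene name table. Promoter motifs and sequences were not analysed here. Alternatives were other pseudocounts, filters, scalings, no variance trend, the replicate block, the adjusted p alone and leaving out each library.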

Additional observations from a re-analysis of the deposited data

How the results depend on the processing

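Knock-in against WT, 6 of the 10 genes were called under each pseudocount, filter and scaling tried, without the variance trend and with the replicate block, and 5 to 7 without a library. Same-numbered libraries of these groups did not deviate together (r = -0.017, 0.010 and 0.096). Of all genes, 225 were higher and 99 lower. These counts were 346 and 192 with a pseudocount of 0.1 and 684 and 328 by the adjusted p alone, and 181 were lower with a pseudocount of 0.01, 42 without a filter and 60 with the replicate block, where ATF3 was not called (adjusted p = 0.05003). Without a library they ranged from 117 to 303 and from 28 to 143, and knock-in library 1 (117 and 28), knock-in library 2 (119 and 31) and WT library 1 (135 and 42) each lowered both by over 1.5 times when left out. The EGR1 difference ranged from -0.146 (without WT library 3) to 1.661 (without WT library 1).

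Activin A against SB431542, 8 genes were higher and 5 lower. With the replicate block 73 were higher and 26 lower, and 2 of the 10 genes were called. The counts were 5 and 3 with a pseudocount of 0.01, 3 and 2 without a filter, and 2 and 3 with a filter of 1 FPKM. Without the variance trend 3 were higher, and by the adjusted p alone 13. Without a library they ranged from 0 to 4 and from 0 to 1, and 0 of the 10 genes were called in each. Differences that changed sign when a library was left out were small ones: ARC ranged from -0.409 to 0.641, IER3 from -0.313 to 0.396, NR4A3 from -0.074 to 0.249 and NR4A2 from -0.003 to 0.244. The cause of these changes was not tested. List counts under the alternatives were computed after the data were seen. The 95% interval of the IER3 difference was -0.97 to 1.0 and, with the block, -0.20 to 0.23.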
